A study of Bos taurus with 20 samples.

Results

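A set of 10 genes of TGF-beta and activin signalling was followed in the skin of horned, polled and scurred cattle (Bos taurus). They are the ligand genes TGFB1, TGFB2, TGFB3, INHBA and INHBB, the binding protein gene LTBP2, the receptor genes TGFBR2 and TGFBR3, the inhibitor gene SMAD7 and the matrix gene TGFBI. Each was taken as 1 probe by its name on the array, which makes 10 members of 21475 gene probes. All 10 probes stood well above background, in a share of at least 0.5 of the spots of an animal, in 11 of 11 animals. No member spot was flagged. The values are log2 values from an Agilent array read in Cy5 and Cy3.

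Biopsies of epidermis, dermis and dermal connective tissue were cut from the place on the skull where horns form. They came from 3 horned animals (2 male, 1 female), 4 polled animals, which grow no horns (1 male, 3 female), and 4 scurred animals, which carry loose, incomplete horn growths (3 male, 1 female). Breed, age and genotype at the horn loci are not given in the sources used here. On each of chips 1 to 4, 1 polled, 1 scurred and 1 horned animal were set against each other on 4 arrays, with the polled and horned pair also run in the opposite dye order; animals carry the number of their chip, except that horned replicate 2 served chips 2 and 4. On chip 5, horn-forming skin of polled replicate 3 and of scurred replicate 2, both female, was set against other skull skin of the same animal in both dye orders. Each of chips 1 to 4 paired a polled with a scurred animal of the other sex, and chip 1 has a scan day of its own.

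TGF-beta ligands are secreted in a latent form, held in the matrix by latent TGF-beta binding proteins, and released to act on a pair of serine/threonine kinase receptors. The receptors phosphorylate SMAD2 and SMAD3, which enter the nucleus with SMAD4, while SMAD7 is induced by the pathway and shuts the receptors off. Activins, dimers of the subunits that INHBA and INHBB encode, signal through the same SMADs. In skin the pathway is known for restraining keratinocyte growth, for hair follicle cycling and for driving fibroblasts to make matrix.

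Depth of signal was even over the arrays: 62.2% to 73.8% of spots stood well above background, and 0 to 19 spots per array were flagged. Arrays of the same pair of animals in opposite dye order had correlations over all probes of -0.94 to -0.82 (chips 1 to 4) and of -0.70 and -0.66 (chip 5). For the members, the polled minus horned value of a chip was measured in both dye orders in 40 cases. The dye orders gave the same sign in 35 of the 40 cases, with a median gap of 0.18 and a largest gap of 0.60. For the skin label, all 5 fibroblast markers and 4 of 5 keratinocyte markers (KRT5, KRT14, KRT10 and COL17A1) were well above background in 11 of 11 animals, and the fifth, TP63, in 5. Marker signals of other tissues differed between biopsies. The median of the 4 cartilage and bone markers stood 3.74 above the horned animal in scurred replicate 4. It was -0.38 to 0.10 in the other 7 polled and scurred animals. IBSP, 1 of the 4 markers, was well above background in 1 animal.

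The probes that the horn type results turn on are shown by their last 30 bases of 60, 5′ to 3′ as the array's files print them, so that a reader can look up which transcript each one reads. TGFB3 is given with its second probe, because that probe gave a smaller difference. Capitals mark the letters AATAAA, the usual polyadenylation signal, searched on the printed strand only.
TGFBI: tggctctgccaaatgtttttcgcgcctcca
TGFB1: cagcaaggtcctggccctgtacaaccagca
TGFB3: ctggaagattgtttctaaacAATAAAagcc
TGFB3, second probe: atggtggtgaagtcctgcaagtgcagctga
TGFBR2: aaatactgacttttttcactacgtaaaggg
INHBB: tctttatgtttatttAATAAAgctcccctt
These letters occurred in 3 of the 10 member probes (TGFB2, TGFB3 and INHBB) and in 11.8% of all gene probes. No pair among the members shared more than 10 bases in a row.

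Among the ligands, TGFB3, the isoform best known from palate closure and skin repair, stood lower in polled than in horned skin. Its level was 12.74, 12.21 and 12.15 in horned replicates 1 to 3, and 11.87, 10.93, 12.09 and 11.49 in polled replicates 1 to 4. In scurred replicates 1 to 4 it was 11.89, 11.73, 12.18 and 12.51. Every polled animal lay below every horned one; polled replicate 3 came closest. Polled levels wholly below horned levels were seen for 4.92% of tested probes. The scurred animals overlapped both groups.

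The comparison of polled with horned skin asked what differs where no horn forms. The fitted difference for TGFB3 was -0.85 (SE 0.34), with an unadjusted p of 0.0401 and an adjusted p of 0.527 by limma with Benjamini-Hochberg adjustment over 15712 probes. It therefore did not pass the test at an adjusted p of 0.05. Against the horned animal of its chip, TGFB3 read -0.93, -1.37, -0.09 and -0.79 in polled replicates 1 to 4. Without polled replicate 2, the only polled male, the fit gave -0.35. The second TGFB3 probe gave -0.52 (SE 0.28), and there the polled and horned levels overlapped. That probe was dimmer, with a mean level of 7.51 against 11.99 for the member probe.

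**Figure D1:**
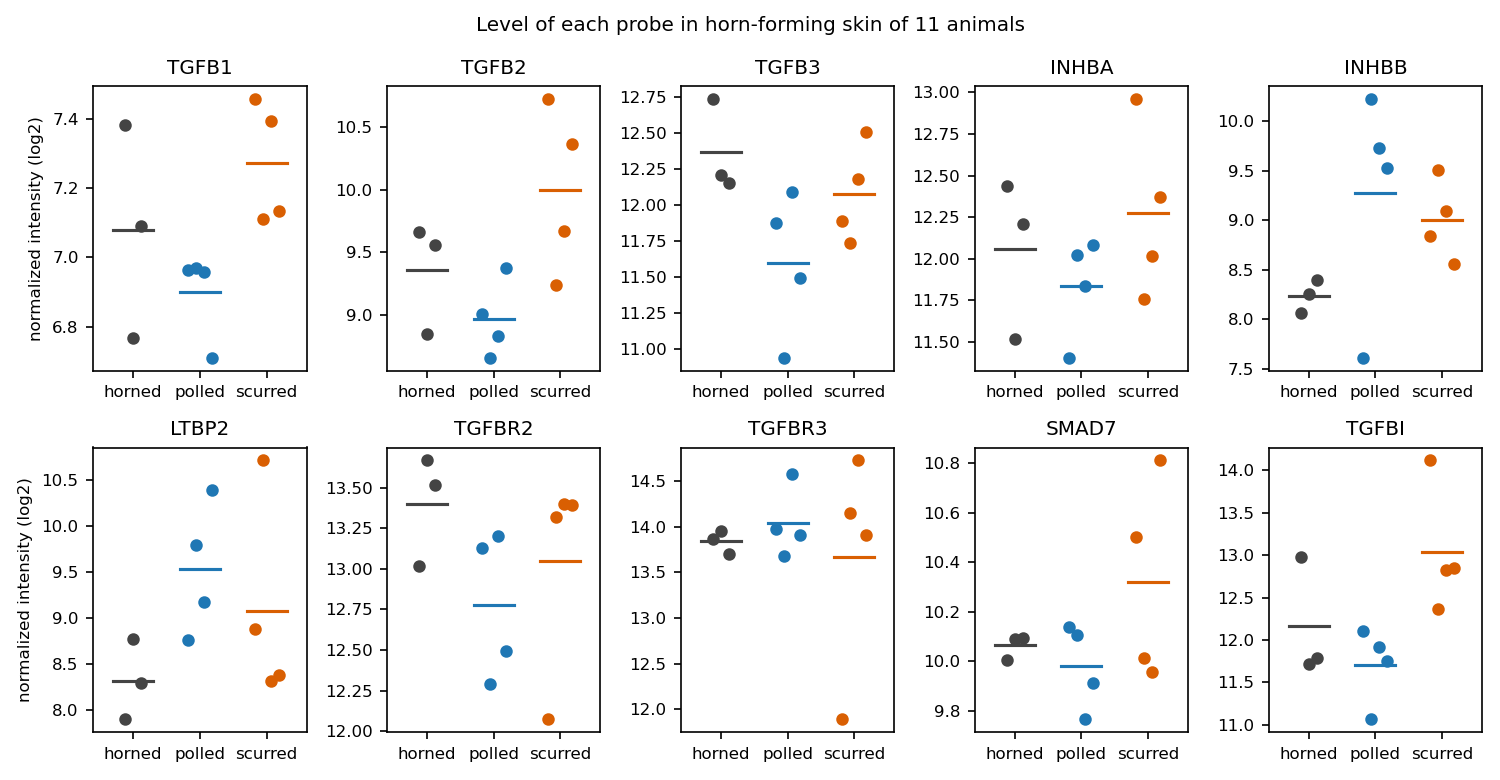
Normalized log2 intensity of each member probe (y axis, a scale of its own in each panel) in horn-forming skin by horn type (x axis). Points are the 3 horned, 4 polled and 4 scurred animals and lines are group means; the scurred points of TGFBI and TGFB1 lie above all polled points, and the polled points of TGFB3 below all horned points.

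TGFB1, the isoform most used in studies of fibrosis, covered a narrow range on a dim probe. The mean level of 7.03 lay at percentile 39.94 of all gene probes. A share of 0.67 of the TGFB1 spots of polled replicate 4 and 0.75 of those of horned replicate 2 were well above background. In the other animals all of them were. Its level was 7.38, 6.77 and 7.09 in the horned animals, 6.96, 6.97, 6.96 and 6.71 in the polled animals, and 7.46, 7.11, 7.39 and 7.13 in the scurred animals. Every scurred animal lay above every polled one by level, which was so for 1.39% of tested probes, while the horned animals spanned both groups. By the difference from the horned animal of the chip the scurred and polled groups overlapped, with scurred replicate 1 at 0.05 and polled replicate 2 at 0.17. Within chips 1 to 4 the scurred animal exceeded the polled one by 0.50, 0.18, 0.37 and 0.44. The fitted scurred minus polled difference was 0.29 (SE 0.11; limma unadjusted p = 0.0317, adjusted p = 0.793). It was 0.71 from the scanner software's processed signals, which carry the software's own background and dye correction. Unlike those, the main values carry an offset of 50 on the signal, whose part in the narrow range was not tested.

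TGFB2, the isoform linked to entry of hair follicles into regression, was more variable. Its levels in the horned animals were 9.66, 8.85 and 9.56. In the polled animals they were 9.004, 8.65, 8.83 and 9.37, and in the scurred animals 10.73, 9.24, 9.67 and 10.36. On each of chips 1 to 4 the scurred animal exceeded the polled one, by 1.77, 0.53, 0.86 and 0.87, yet the groups overlapped. The fitted scurred minus polled difference was 0.82 (SE 0.39; limma adjusted p = 0.844), and it read -0.33 without polled replicate 2.

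Thus 4 of the 10 members, TGFB1, TGFB2, TGFB3 and TGFBI, were higher in the scurred than in the polled animal on 4 of 4 chips. For TGFB3 the difference was as small as 0.0152 on chip 1, and its second probe read -0.22 on chip 3. None of the members was lower on all 4 chips. The scurred animal was higher on all 4 chips for 9.57% of tested probes, and one direction of either kind was seen for 19%. Against the horned animal, 4 members were higher in all 4 scurred animals (TGFB1, TGFB2, TGFBI and INHBB) and TGFBR2 was lower in all 4; over all probes the shares were 8.49% higher and 9.71% lower, together 18.2%. In polled animals LTBP2 was higher and TGFB3 lower than the horned animal on all 4 chips, where 14.2% of probes were higher and 13.1% lower on all 4, together 27.3%. For TGFB3 on chip 3 the dye orders disagreed in sign, at -0.21 and 0.03, and the second probe read 0.16 in polled replicate 3.

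The activin subunit genes differed from each other. INHBB, whose product forms activin B, had levels of 8.06, 8.26 and 8.40 in the horned animals. It had 7.61, 10.23, 9.73 and 9.53 in the polled animals and 8.85, 9.51, 9.10 and 8.56 in the scurred animals. All 4 scurred animals lay above all 3 horned ones, as did 3 of 4 polled animals; polled replicate 1 was the exception and lay below every other animal. Scurred levels entirely above horned levels were seen for 1.89% of probes.

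The fitted difference for INHBB was 1.18 (SE 0.48) for polled minus horned, with a limma unadjusted p of 0.0423 and an adjusted p of 0.53. For scurred minus horned it was 0.68 (SE 0.45; adjusted p = 1.0 after rounding). Leaving out 1 animal moved the polled value between 0.70 (without polled replicate 2) and 1.61 (without polled replicate 1).

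INHBA, the subunit of activin A, a factor that rises in wounded skin, showed no one direction by horn type on its member probe. The second INHBA probe exceeded the horned animal in all 4 scurred animals, by 0.25, 0.13, 0.04 and 0.38, and in 2 of 4 polled animals. All 4 scurred animals were higher for 8.49% of tested probes. Against the horned animal of the chip the INHBA member probe read -1.01, 0.52, -0.36 and 0.58 in the polled animals. In the scurred animals it read 0.53, 0.29, -0.15 and 0.91. Of the 10 members it had the lowest p for sex: the fitted male minus female difference was 0.55 (SE 0.24; limma unadjusted p = 0.0513, adjusted p = 1). In the reported fit, no member passed an unadjusted p of 0.05 for sex, where 2.09% of probes did. None passed an adjusted p of 0.05, where 0.0191% did.

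LTBP2, a binding protein of elastic fibres that, unlike its relatives, does not itself hold latent TGF-beta, read above the horned animal in 7 of 8 animals. The differences were 0.79, 1.06, 0.84 and 1.54 in polled replicates 1 to 4, and 0.93, 1.96, 0.08 and -0.51 in scurred replicates 1 to 4. By these differences the polled animals lay close together, whereas the scurred animals spread from below the horned animal to far above it. By level the polled animals ran from 8.76 to 10.39 and the scurred animals from 8.32 to 10.71. The horned animals ran from 7.89 to 8.77, and all groups overlapped. The fits gave 0.80 (SE 0.52) for polled minus horned and 0.64 (SE 0.50) for scurred minus horned, neither past the test. Without horned replicate 2 these read 0.16 and 0.22, without polled replicate 2 the first read 0.26, and the second read 0.17 without scurred replicate 2 and 0.22 without chip 2.

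**Figure D2:**
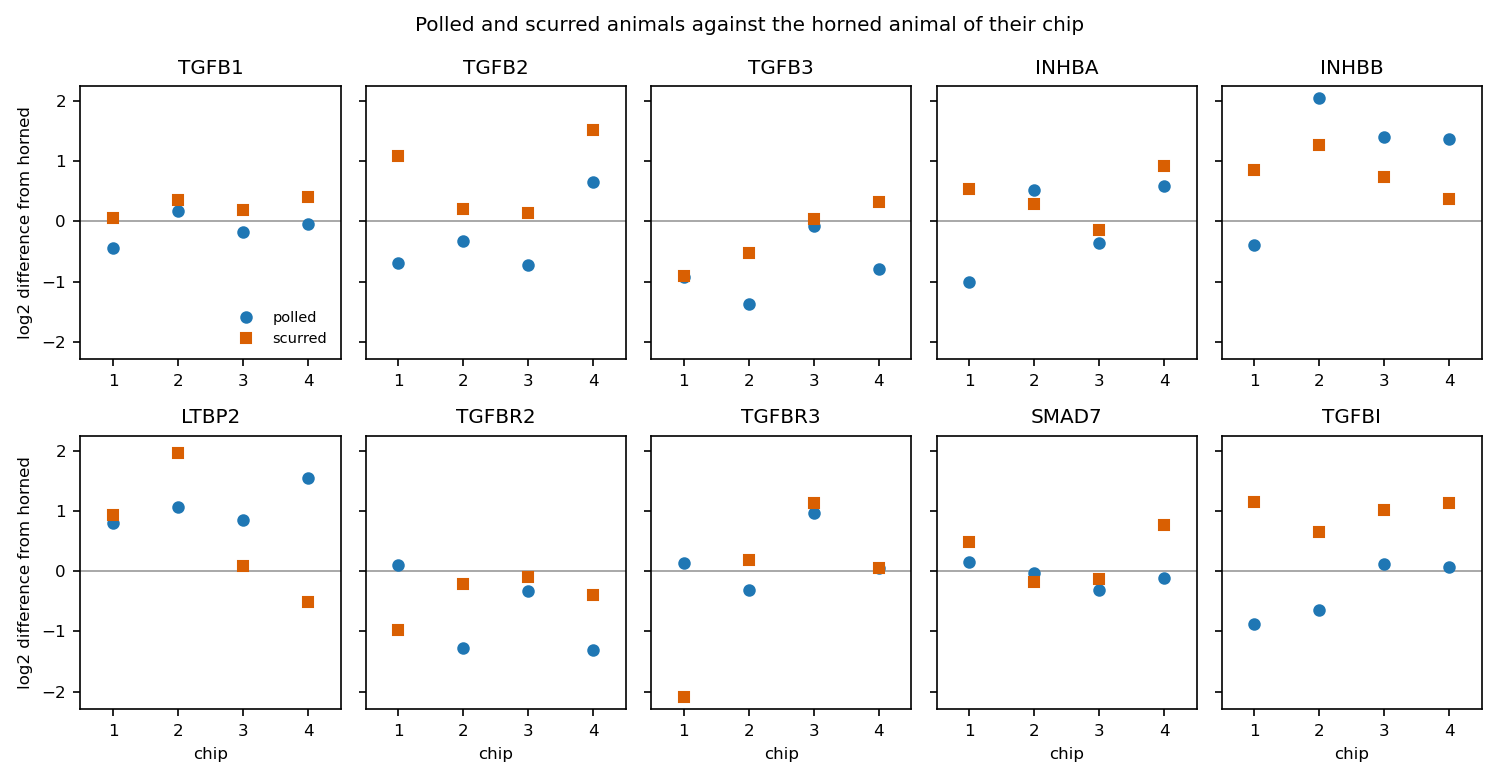
Log2 difference of the polled (circles) and the scurred animal (squares) from the horned animal of the same chip (y axis) on chips 1 to 4 (x axis), 1 panel per member; 1 point is 1 animal. The scurred squares of TGFBI stay between 0.66 and 1.15 while its polled circles stay between -0.87 and 0.11, and scurred replicate 1 stands at -2.08 for TGFBR3.

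Of the receptors, TGFBR2, the kinase that binds the ligand, had levels of 13.02, 13.67 and 13.51 in the horned animals. In the polled animals it had 13.13, 12.29, 13.20 and 12.49, and in the scurred animals 12.07, 13.32, 13.40 and 13.39. Polled replicates 2 and 4 and scurred replicate 1 were the low animals, and all 3 groups overlapped. The fitted polled minus horned difference was -0.83 (SE 0.33; limma unadjusted p = 0.0375, adjusted p = 0.525). It lay between -1.08 and -0.64 over all alternatives and left-out fits run.

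Signals of tissue markers ran along with the polled and horned groups. All 5 fibroblast markers were fitted lower in polled than in horned skin, with a median of -1.28, and no polled animal's summed fibroblast level reached the horned range. All 5 keratinocyte markers were fitted higher, with a median of 2.06, and summed levels of 15.95 to 18.37 in polled against 14.24 to 15.69 in horned animals. Red cell (3 of 3, median 2.37) and skeletal muscle markers (4 of 4, median 2.01) were fitted higher as well, and macrophage markers lower (5 of 5, median -0.81). Melanocyte (3 of 3, median 1.60) and lymphocyte markers (3 of 3, median 0.72) were also higher. Fat (3 of 3, median -0.69), smooth muscle (4 of 4, median -0.64) and Schwann cell markers (3 of 3, median -0.57) were lower. Endothelium (median -0.33) and cartilage and bone markers (median -0.08) were mixed. Markers in bulk skin cannot tell fewer cells from less RNA per cell. Of the fibroblast markers, COL1A1, COL1A2 and COL3A1 are also counted below as pathway targets, and DCN as an antagonist. The part of tissue makeup in the lower TGFB3 and TGFBR2 and the higher INHBB signals of polled skin was not tested.

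TGFBR3, the co-receptor betaglycan that presents ligand to TGFBR2, had levels of 13.70 to 13.96 in the horned, 13.67 to 14.58 in the polled and 11.89 to 14.73 in the scurred animals. The low value is scurred replicate 1, which read -2.08 against its horned animal on this probe and -1.69 on the second TGFBR3 probe. The same animal had the lowest smooth muscle marker median of the 8, at -2.98, and the highest keratinocyte marker median, at 3.97; the part of tissue makeup in its TGFBR3 value was not tested. The fitted differences were 0.04 for polled minus horned and -0.11 for scurred minus horned, with SEs of 0.56 and 0.53. These turned sign between probes: the second probe gave -0.09 and 0.15.

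SMAD7 took no one direction in either group. It read 0.15, -0.03, -0.32 and -0.11 in the polled animals and 0.48, -0.18, -0.14 and 0.77 in the scurred animals, all against the horned animal of the chip. Its fitted difference was 0.01 (95% interval -0.52 to 0.53) for polled minus horned, and that sign turned under 7 of the 10 other settings. For scurred minus horned it was 0.19 (95% interval -0.31 to 0.69).

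TGFBI, an adhesive matrix protein whose gene was first found by its induction with TGF-beta, was the member with the lowest p in any comparison of horn types. Its level was 12.98, 11.71 and 11.79 in the horned animals, 12.11, 11.06, 11.91 and 11.75 in the polled animals, and 14.12, 12.37, 12.82 and 12.85 in the scurred animals. All 4 scurred animals lay above all 4 polled animals, which was so for 1.39% of probes by level and for 1.27% by the difference from the horned animal. Horned replicate 1 stood within the scurred range, yet the scurred animal of its own chip was higher still.

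Against the horned animal of its chip, TGFBI read 1.15, 0.66, 1.01 and 1.13 in scurred replicates 1 to 4. In polled replicates 1 to 4 it read -0.87, -0.65, 0.11 and 0.06. The scurred animals were all higher, and the polled animals were split, those of chips 1 and 2 lower and those of chips 3 and 4 near 0.

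The fitted difference for TGFBI was 1.33 (SE 0.28, 95% interval 0.67 to 1.98) for scurred minus polled, a 2.51-fold higher signal. Its limma unadjusted p of 0.0019 ranked 26 among 15712 probes, and its adjusted p was 0.793. For scurred minus horned the fit gave 0.99 (SE 0.27, 95% interval 0.35 to 1.63), with an unadjusted p of 0.00789 and an adjusted p of 1.0 after rounding. For polled minus horned it gave -0.33 (SE 0.29). The 3 comparisons share animals and are not independent of each other.

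Sex runs along with these groups, since 3 of 4 scurred animals were male and 3 of 4 polled animals female. On chip 2, where the scurred animal was the female and the polled animal the male, TGFBI was 1.31 higher in the scurred animal; on chips 1, 3 and 4, with the sexes the other way round, it was 2.02, 0.89 and 1.07 higher. The fitted male minus female difference of TGFBI was -0.01 (95% interval -0.59 to 0.58), and without a sex term scurred minus polled was 1.32. Without polled replicate 2 it was 0.87, with a limma unadjusted p of 0.0524. Without chip 2 it was 1.08, with a limma unadjusted p of 0.107, and without chip 1, which has its own scan day, it was 1.15.

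**Figure D3:**
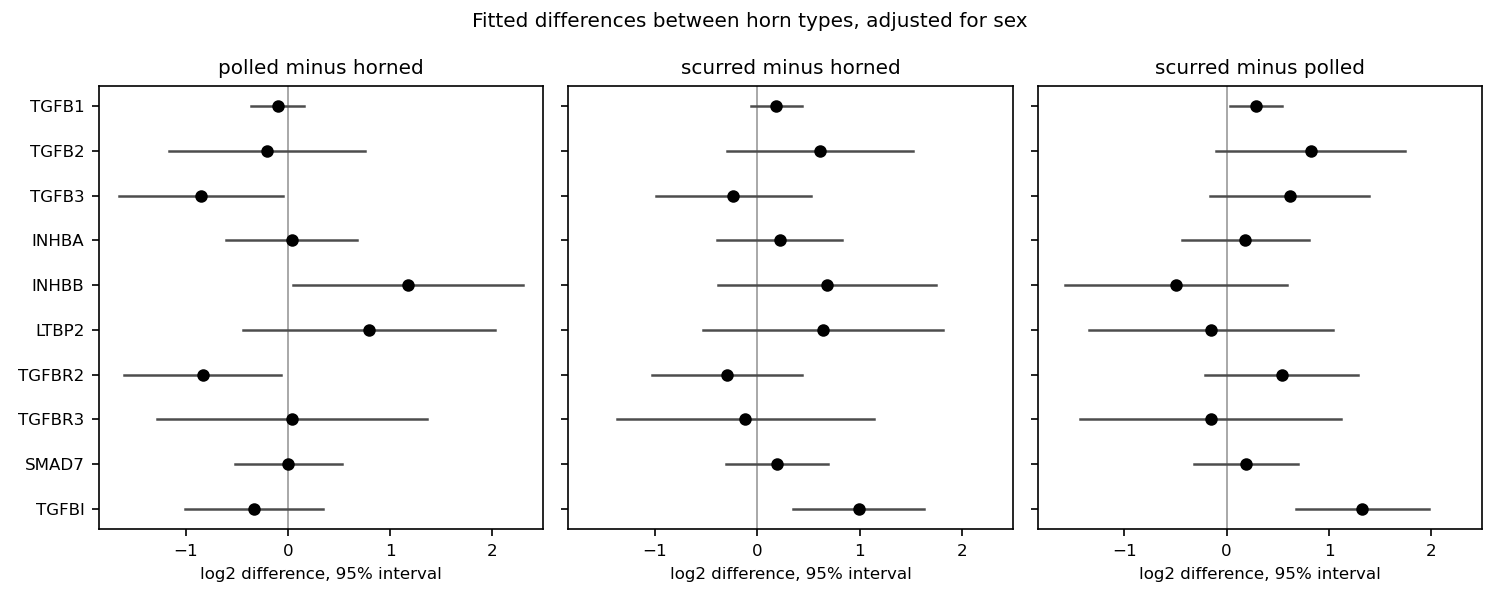
Fitted log2 differences between horn types for the 10 members, adjusted for sex and chip (x axis, log2; points are fitted values and bars 95% intervals, from 11 animals). The TGFBI interval lies above 0 in both comparisons with scurred skin; no member had an adjusted p under 0.05.

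For scurred minus polled, fibroblast and macrophage markers were fitted in the same direction as TGFBI. So were all tested markers of cartilage and bone (median 0.53), fat (0.47), red cells (0.42), Schwann cells (0.12) and lymphocytes (0.06). Medians were negative for smooth muscle (-0.45), keratinocyte (-0.32), melanocyte (-0.30), skeletal muscle (-0.17) and endothelium markers (-0.06). In bulk skin, fewer cells of a type and less RNA per cell cannot be told apart. All 5 fibroblast markers (COL1A1, COL1A2, COL3A1, DCN and LUM) were fitted higher in scurred than in polled skin, with a median of 1.33, and their summed level was 16.30 to 17.87 in polled, 16.99 to 18.55 in scurred and 18.08 to 18.26 in horned animals. All 5 macrophage markers (CD68, CD163, CSF1R, AIF1 and C1QA) were also fitted higher, with a median of 0.99, and summed levels of 14.07 to 15.62 in polled, 14.999 to 16.07 in scurred and 14.81 to 16.22 in horned animals.

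By animal, the fibroblast median against the horned animal was -0.87, -2.21, -0.61 and -0.13 in polled replicates 1 to 4 and -1.35, 0.26, 0.34 and 0.75 in scurred replicates 1 to 4. In scurred replicate 1 the fibroblast and macrophage lists ran apart from TGFBI. There TGFBI was 1.15 above the horned animal while the fibroblast median read -1.35 and the macrophage median -0.79. In polled replicates 3 and 4 TGFBI read 0.11 and 0.06 beside fibroblast medians of -0.61 and -0.13 and macrophage medians of 0.66 and -0.89. Against horned skin, the fitted medians were 0.04 for fibroblast and 0.16 for macrophage markers in scurred animals, but 2.24 for keratinocyte markers (5 of 5 higher), 2.78 for red cell markers (3 of 3 higher) and 1.71 for skeletal muscle markers (4 of 4 higher). The other medians of scurred against horned skin were 1.08 for melanocyte, 0.80 for lymphocyte and 0.56 for cartilage and bone markers. They were -1.05 for smooth muscle, -0.45 for Schwann cell, -0.34 for endothelium and -0.07 for fat markers. The part of these cell types in the TGFBI result was not tested.

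**Figure D4:**
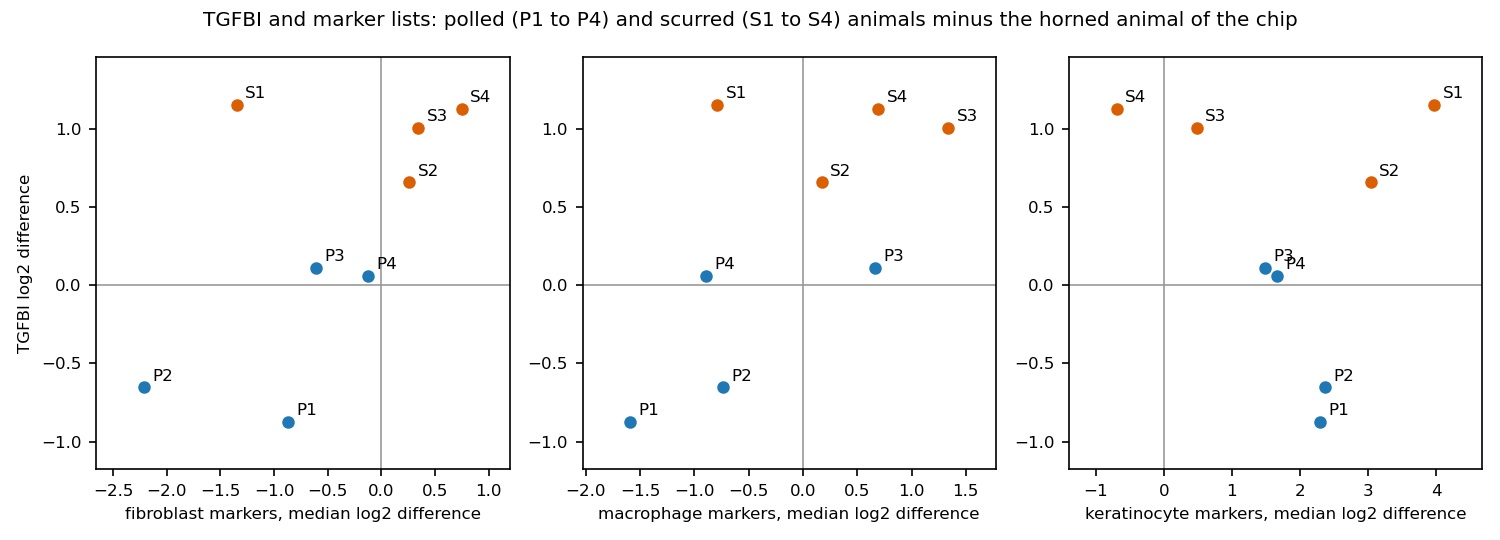
TGFBI difference (y axis) against the median difference of fibroblast, macrophage and keratinocyte markers (x axes), all as log2 difference from the horned animal of the chip; each point is 1 polled (P1 to P4) or scurred (S1 to S4) animal. S1 pairs a TGFBI value of 1.15 with a fibroblast median of -1.35 and a keratinocyte median of 3.97.

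Counted together, 0 of 10 members had an adjusted p under 0.05 in any comparison of horn types. That rule called 0.00636% of probes for polled minus horned (a single probe) and 0% for scurred minus horned and for scurred minus polled. At an unadjusted p under 0.05, polled minus horned held 3 of 10 members, TGFB3 and TGFBR2 lower and INHBB higher, against 9.3% of all probes (4.78% higher, 4.53% lower). Scurred minus horned held TGFBI alone, higher, against 3.73% (1.6% higher), and scurred minus polled held TGFBI and TGFB1, both higher, against 5.99% (2.91% higher). The median over the members was -0.05, 0.21 and 0.24 in these 3 comparisons, and the median over all tested probes was 0.01, 0.01 and -0.01.

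The wider pathway was counted over a list of 67 genes, of which 66 were on the array and 58 were tested, the 10 members among them. None of the 58 passed an adjusted p of 0.05 in any comparison. Beyond the members, 48 genes were tested, and the counts below are at an unadjusted p under 0.05. In polled against horned skin 2 of the 48 were higher (4.78% of all probes were) and none lower: CDKN1A, a cell cycle inhibitor and target, by 1.86 (SE 0.61), and THBS1, an activator of latent TGF-beta, by 0.64 (SE 0.24).

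In scurred against horned skin 3 of the 48 were higher (1.6% of all probes were) and none lower, among them THBS1 by 0.57 (SE 0.23) and TIMP1, an inhibitor of matrix proteases, by 0.59 (SE 0.24). TIMP1 exceeded the horned animal in 4 of 4 scurred and 0 of 4 polled animals. In scurred against polled skin 4 of the 48 were higher (2.91% of all probes were) and none lower. These were TIMP1 by 0.85 (SE 0.25), FBN1, the microfibril protein that anchors latent complexes, by 0.52 (SE 0.19), FN1 by 0.99 (SE 0.39) and TNC by 2.10 (SE 0.85), both matrix glycoproteins.

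By role, the 15 target genes, TGFBI included, had a median of -0.38 for polled minus horned, 0.29 for scurred minus horned and 0.99 for scurred minus polled; 3 of the 15, COL1A1, COL1A2 and COL3A1, are also fibroblast markers. The 11 tested antagonists and brakes had a median of 0.21 for scurred minus horned, none past an unadjusted p of 0.05. The 6 ligands had medians of -0.03, 0.20 and 0.23 in the same order of comparisons, and the 8 receptors -0.07, -0.10 and 0.07. For sex, 1 of the 58 tested genes passed an unadjusted p of 0.05, where 2.09% of all probes did. That gene was FBN1, at -0.50 (SE 0.17) for male minus female. The scurred minus polled value of FBN1 was adjusted for sex in the same fit, and sex runs along with those groups.

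Genes whose pattern over the 8 differences from the horned animal was most like that of a member were looked up for the 3 members with the widest spread. For TGFBR3 these were TGFBRAP1 and NIN (a Pearson correlation of 0.99 for each), for TGFB2 they were TMEM120A (0.98), FIBIN (0.97) and ISLR2 (0.96), and for TGFBI they were ZP3 (0.98), HOMER3 (0.97) and MYO7A (0.96). The 8 points share horned animals and chips, the genes were picked from all tested probes for this likeness, and for TGFBR3 scurred replicate 1 lies far from the other points.

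Chip 5 asked how horn-forming skin differs from other skull skin of the same animal. SMAD7 was lower at the horn site in both animals, by -0.35 and -0.54 on the 2 arrays of polled replicate 3 and by -0.53 and -0.71 on those of scurred replicate 2. INHBA was also lower on all 4 arrays, at -0.53 and -0.34 in the polled and -0.50 and -0.38 in the scurred animal. TGFBR3 was higher on all 4, at 0.71 and 0.75 in the polled and 0.30 and 0.46 in the scurred animal. TGFBI, LTBP2 and TGFB2 also kept one sign on all 4 arrays, so 6 of 10 members did, TGFB2 with values as small as -0.0033 and -0.01. One sign on 4 of 4 arrays was seen for 21.2% of the 15290 probes tested there.

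The mean over both animals was -0.53 (SE 0.13) for SMAD7, -0.44 (SE 0.12) for INHBA and 0.56 (SE 0.15) for TGFBR3, with limma unadjusted p-values of 0.0204, 0.0281 and 0.0312 on 1 residual degree of freedom before moderation. All 3 had an adjusted p of 0.962; no probe of the 15290 passed an adjusted p of 0.05, and 4.71% passed an unadjusted p of 0.05 (2.65% higher, 2.06% lower) against these 3 of 10 members (1 higher, 2 lower). From the scanner software's processed signals, 0 of the 10 members passed the unadjusted threshold. The second probes had the same signs but smaller values for SMAD7 and INHBA, at -0.19 each, and 0.41 for TGFBR3. They were also dimmer, with mean levels on chips 1 to 4 of 7.05, 7.59 and 9.16. The member probes of SMAD7, INHBA and TGFBR3 had 10.10, 11.98 and 13.88. The part of lower signal in the smaller values was not tested. The second TGFBR3 probe was not higher on all 4 arrays, since it read -0.12 on 1 of the 2 arrays of the scurred animal. Centring each array on its median in place of loess moved the median of all probes to -0.15; TGFBR3 then read 0.16 and TGFBI 0.09.

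TGFBI read 0.23 in the polled and 0.63 in the scurred animal at the horn site, with every array above 0, and LTBP2 read -0.27 and -1.30. By the mean of its arrays, 4 of 10 members had opposite signs in the 2 animals, as did 49.5% of all probes. INHBB was one, at 0.21 in the polled and -0.47 in the scurred animal, though the polled arrays disagreed in sign. TGFB1, TGFB3 and TGFBR2 were opposite in both dye orders, as were 21.1% of all probes; they read lower at the horn site of the polled animal and higher at that of the scurred animal. For TGFB3 the values were -0.48 and 0.50, and its second probe gave -0.42 and 0.47. With 1 animal of each horn type, horn type and animal cannot be told apart.

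**Figure D5:**
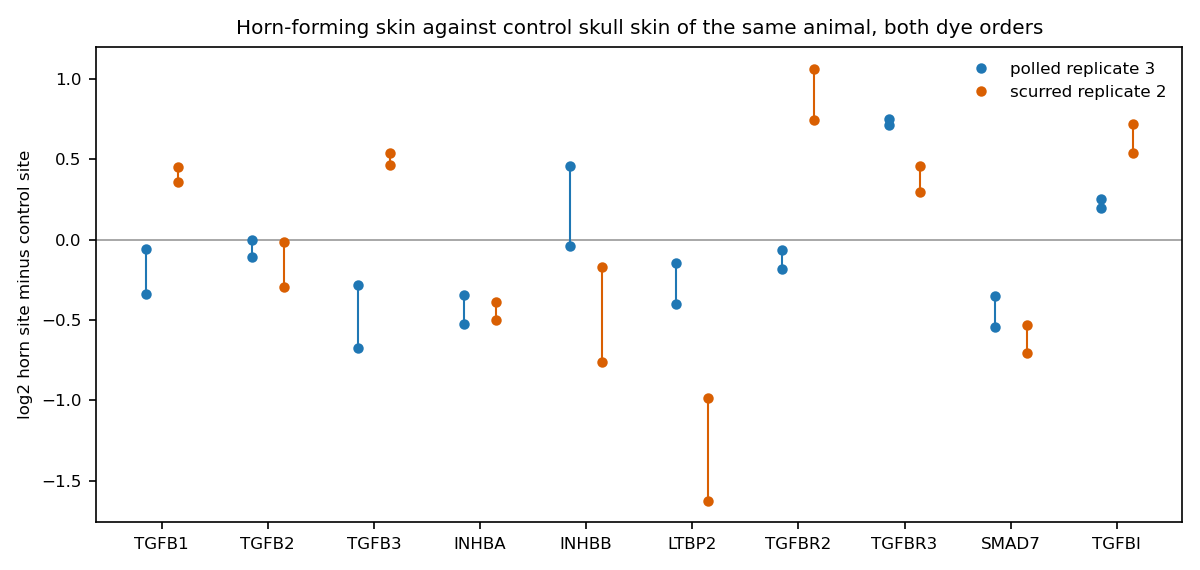
Log2 horn site minus control skull site (y axis) for the 10 members (x axis) in polled replicate 3 and scurred replicate 2; points are the 2 arrays of opposite dye order of each animal, joined by a line. SMAD7 and INHBA lie below 0 and TGFBR3 above 0 on all 4 arrays, and TGFB1, TGFB3 and TGFBR2 lie on opposite sides of 0 in the 2 animals; with median centring the mean of TGFB3 turned from 0.01 to -0.34.

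In the wider list at the horn site, 3 of 48 genes beyond the members were higher and 6 lower at an unadjusted p under 0.05, where 2.65% of all probes were higher and 2.06% lower. Among those with the lowest p were CCN2, a matricellular target, at -1.08 (SE 0.12), the activin-binding inhibitor FSTL3 at -0.72 (SE 0.16), the matrix protein POSTN at 1.71 (SE 0.43), the SMAD corepressor TGIF1 at -0.46 (SE 0.12) and CDKN1A at -0.42 (SE 0.12). Their adjusted p was 0.962 as well. All 5 fibroblast markers were fitted higher at the horn site, with a median of 0.19, as were all 5 macrophage markers, with a median of 0.77. Skeletal muscle (4 of 4, median 2.26) and Schwann cell markers (3 of 3, median 1.07) were fitted higher too, and melanocyte (3 of 3, median -0.98) and keratinocyte markers (5 of 5, median -0.28) lower. The other medians at the horn site were 0.77 for red cell, 0.71 for fat, 0.45 for endothelium and 0.08 for lymphocyte markers. They were -0.48 for smooth muscle and -0.05 for cartilage and bone markers. The part of these tissues in the gene values was not tested.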

How the data were processed

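Total RNA of skin biopsies was hybridised to 2-colour arrays. Per the submitters' processing notes, the scanner files came from Agilent Feature Extraction 9.5.1. The deposited files hold intensity per spot and dye (mean signal, background and processed signal); the deposited value table holds log10 ratios, found from the scanner files to run as Cy5 over Cy3 except in the 6 dye-swapped columns, which are turned. The authors' own tests are not given in the sources used here.

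Here mean signals were corrected with normexp (offset 50), log2 ratios normalized by loess within arrays, and duplicate spots averaged (limma 3.58.1, R 4.3.3). The 16 arrays of chips 1 to 4 gave 1 value per animal, with a dye coefficient. These were fitted with chip as a block, horn type and male (11 animals, 5 residual degrees of freedom before eBayes moderation), two-sided, with Benjamini-Hochberg adjustment over 15712 probes. A probe was kept if well above background in a share of at least 0.5 of the spots of 3 or more animals (2 or more RNAs on chip 5, leaving 15290). The chip pairs the animals by design. Levels are channel values after Aquantile normalization, compared between animals within a probe only. Mean levels set beside each other between probes describe signal brightness, not amounts of transcript. Precision is limited by the number of animals. The fits were tested on simulated data. Every member is named; other pathway genes are named at an unadjusted p under 0.05, at most 6 per comparison. Some genes that these rules would name are not reported here. Likeness covers the 3 members with the widest spread. Probe symbols come from the files, updated through RefSeq (ARS-UCD2.0): 16373 of 21475 probes have one. Members and lists were chosen with earlier results of these data known. Alternatives covered background, normalization, filter, sex, dye, block, and leaving out each chip and each animal.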

Additional observations from a re-analysis of the deposited data

Results flagged for a closer look

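At the horn site against other skull skin of the same animal, 3 members ran in opposite directions in the 2 animals in both dye orders. TGFB1 was -0.20 in polled replicate 3 and 0.40 in scurred replicate 2. TGFB3 was -0.48 in polled replicate 3 and 0.50 in scurred replicate 2. TGFBR2 was -0.12 in polled replicate 3 and 0.90 in scurred replicate 2. Over all probes tested there, 21.1% were opposite in both dye orders and 49.5% by the mean of the arrays of each animal. The difference between the animals was not tested, since each horn type had 1 animal. Among 20 groups of 4 animals, no animal stood apart from its group by Dixon's criterion. With 4 animals the criterion marks only an extreme value, so it cannot show that no animal lay apart. It left unmarked scurred replicate 1 for TGFBR3, at -2.08 beside 0.06 to 1.13. Polled replicate 1 for INHBB, at -0.39 beside 1.37 to 2.04, was also left unmarked.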

How the results depend on the processing

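No member reached an adjusted p under 0.05 under any alternative or left-out fit run. With 11 animals and 5 residual degrees of freedom, differences of the size seen here were mostly within the error. Where a sign turned, the cause was not tested.

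For polled minus horned, SMAD7 turned to -0.0479 from processed signals and from the deposited values, -0.0657 with median centring, -0.0873 without a sex term, -0.0069 without a dye coefficient and -0.0364 with ordinary least squares. TGFBR3 turned to -0.17 with median centring, and INHBA to -0.0902 with median centring and -0.17 without a sex term. TGFBI male minus female turned to 0.0073 from processed signals and the deposited values and to 0.15 with median centring. TGFB3 at the horn site turned to -0.34 with median centring.

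The chip block pairs the animals. With no replicate block, SMAD7 polled minus horned was -0.0040, TGFBI male minus female 0.22, TGFBI scurred minus polled 1.22 and TGFBI scurred minus horned 0.86, with a limma unadjusted p of 0.0933 for the last.

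Probes with an adjusted p under 0.05 for polled minus horned (1 in the reported fit) numbered 0 from processed signals, the deposited values, median centring and no replicate block, and 4 with ordinary least squares. For scurred minus horned (0) they numbered 1 with median centring and 1 with ordinary least squares, and for scurred minus polled (0) 1 without a sex term. For male minus female (3) they numbered 6 from processed signals, 5 from the deposited values, 1 with a stricter filter and 5 with no replicate block. Leaving out a chip or an animal gave 0 to 1, 0 to 1, 0 to 2 and 1 to 4 probes in these 4 comparisons; the 2 came without chip 4. Median centring moved the share of probes fitted higher from 51.5% to 39% for scurred minus horned, from 50.7% to 63.6% for male minus female and from 47.6% to 33.8% at the horn site.

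Leaving out 1 chip or animal gave these ranges where a sign turned. For polled minus horned they were -0.16 to 0.31 for SMAD7, -0.46 to 0.69 for TGFB2, -0.32 to 0.53 for TGFBR3, -0.14 to 0.40 for INHBA and -0.49 to 0.0536 for TGFBI. For scurred minus horned they were -0.47 to 0.0562 for TGFB3, -0.64 to 0.67 for TGFBR3 and -0.43 to 0.0395 for TGFBR2. For scurred minus polled they were -0.69 to 0.38 for TGFBR3, -0.30 to 0.33 for INHBA, -0.90 to 0.50 for LTBP2, -0.33 to 1.21 for TGFB2, -0.22 to 0.41 for SMAD7 and -0.93 to 0.0668 for INHBB. For male minus female they were -0.42 to 0.38 for TGFB3, -0.69 to 0.0167 for TGFBR3, -0.23 to 0.43 for TGFBI and -0.14 to 0.73 for INHBB.

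TGFBI scurred minus horned lay between 0.83 and 1.18 over the 15 left-out fits, with an unadjusted p under 0.05 in 15 of 15. TGFBI scurred minus polled lay between 0.87 and 1.62, in 13 of 15. TGFB3, TGFBR2 and INHBB for polled minus horned passed that threshold in 7, 5 and 7 of 15, and TGFB1 for scurred minus polled in 7 of 15. For male minus female, INHBA passed it in 5, TGFBR2 in 2 and TGFB2 in 1 of 15. Under the 9 other settings, INHBA passed it for sex in 3 and TGFB1 in 2.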
